A study of Saccharomyces cerevisiae with 5 samples.

Results

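The enzymes described here are 10 genes of the tricarboxylic acid (TCA) cycle of budding yeast, chosen by name: *CIT1*, *CIT2*, *ACO1*, *IDH1*, *IDH2*, *KGD1*, *KGD2*, *LSC1*, *FUM1* and *MDH1*. They are 10 of the 6697 annotated coding sequences (CDS) on which reads were counted. The rule is the list of names and has no threshold on a measured value, but the names were chosen with earlier results of these data known. The cells were wild-type BY4741, grown in YPD (rich medium with glucose), and poly(A)+ RNAseq was performed on cells given 1 mM CuSO4 for 4 hours and on cells in YPD without CuSO4, as 1 library of each. Both cultures carry the markers of this strain, which is of mating type **a** and has deletions in *HIS3*, *LEU2*, *MET17* and *URA3*. A list of γH2A ChIPseq peaks, of cells in YPD, was used to ask whether replication fork stalling lies near these genes. With 1 library per condition no value has a replicate error and no test between conditions is possible, so intervals below are 95% intervals for counting error alone and compare these libraries, not the conditions.

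In the mitochondrial matrix, the TCA cycle oxidises acetyl-CoA derived from pyruvate to CO2, passes electrons to the respiratory chain and supplies alpha-ketoglutarate and oxaloacetate for amino acid synthesis. In budding yeast growing on glucose, ATP comes mostly from fermentation and many genes of the cycle are held at a low level by glucose repression, whereas the Hap2/3/4/5 complex, which binds the sequence CCAAT, activates several of them when cells respire. When respiration is impaired, Rtg1 and Rtg3 maintain the enzymes that lead from acetyl-CoA to alpha-ketoglutarate through the retrograde pathway, whose best known target is *CIT2*. Aconitase carries an iron-sulfur cluster, a cofactor known to be sensitive to copper.

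The libraries held 5749810 reads on CDS with CuSO4 and 5572698 in YPD. Reads are given as counted, whereas the deposited values behind each log2 change hold the YPD reads multiplied by 1.04, so that equal reads give a change slightly below 0. As a check on the treatment, the metallothionein gene *CUP1-1* had 4042 reads in the CuSO4 library and 496 in YPD, while the actin gene *ACT1* had 14144 with CuSO4 and 13398 in YPD, a log2 change of 0.03 (interval -0.01 to 0.06). As a check on the strain, *LEU2*, *URA3* and *MET17* had 0 reads in either library, which allows up to 3 reads each, and *HIS3*, whose deletion in this strain is partial, had 309 with CuSO4 and 291 in YPD. The mating type **a** receptor gene *STE2* had 5320 reads with CuSO4 and 4433 in YPD. The α genes *STE3* and *MF(ALPHA)2* were low, at 7 and 30 reads with CuSO4 and 11 and 46 in YPD, *MF(ALPHA)1* had 0 in both, and *SAG1*, the α-agglutinin gene, had 207 with CuSO4 and 190 in YPD. *MET17* lies 1335 bp from the 3′ end of *ACO1* on chromosome XII.

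The 10 enzymes had between 399 and 4041 reads with CuSO4 and between 406 and 3209 in YPD, and 9 of the 10 were slightly higher with CuSO4 (*CIT2* was the exception), as were 53.2% of the 6078 CDS with at least 20 reads. The largest differences among the 10 were those of *CIT1* at 1.27-fold, *ACO1* at 1.22-fold and *MDH1* at 1.18-fold. None differed by as much as 1.5-fold. The reads of the 10 summed to 14694 with CuSO4, which is 0.256% of all reads on CDS (exact Clopper-Pearson interval 0.251% to 0.260%), and to 12521 in YPD, which is 0.225% (0.221% to 0.229%), a log2 change of 0.18 (0.15 to 0.22). *ACO1* alone gave 4041 of these reads with CuSO4 and 3209 in YPD.

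The results turn mainly on *CIT1*, *ACO1* and *MDH1*, which had the largest differences, and on *CIT2*, which was lower, and the 300 bases upstream of their start codons are shown for that reason. They are from the RefSeq R64 genome, 5′ to 3′ on the strand of the gene, and end at the base before the ATG. Capitals mark CCAAT, the core bound by the Hap complex, and GTCAC, the core bound by Rtg1 and Rtg3, each on either strand (as ATTGG and GTGAC on the other).
CIT1, chrXIV:631062-631361, minus strand: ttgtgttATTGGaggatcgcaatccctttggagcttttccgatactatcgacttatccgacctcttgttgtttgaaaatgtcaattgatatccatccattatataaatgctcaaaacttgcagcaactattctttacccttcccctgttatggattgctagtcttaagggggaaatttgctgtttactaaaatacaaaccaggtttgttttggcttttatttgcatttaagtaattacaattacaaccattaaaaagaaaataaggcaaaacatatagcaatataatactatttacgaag
ACO1, chrXII:737549-737848, minus strand: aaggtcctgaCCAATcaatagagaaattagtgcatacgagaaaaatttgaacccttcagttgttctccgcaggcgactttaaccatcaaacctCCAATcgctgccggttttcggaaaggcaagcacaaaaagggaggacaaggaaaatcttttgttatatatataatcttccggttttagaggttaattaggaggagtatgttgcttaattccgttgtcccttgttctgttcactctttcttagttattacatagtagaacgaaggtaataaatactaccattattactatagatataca
MDH1, chrXI:278823-279122, plus strand: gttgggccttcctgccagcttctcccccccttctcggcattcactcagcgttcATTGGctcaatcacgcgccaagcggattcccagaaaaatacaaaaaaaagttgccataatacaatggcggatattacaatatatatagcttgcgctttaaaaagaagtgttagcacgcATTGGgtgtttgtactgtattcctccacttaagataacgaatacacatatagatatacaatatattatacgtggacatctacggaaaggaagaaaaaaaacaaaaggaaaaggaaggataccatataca
CIT2, chrIII:122329-122628, minus strand: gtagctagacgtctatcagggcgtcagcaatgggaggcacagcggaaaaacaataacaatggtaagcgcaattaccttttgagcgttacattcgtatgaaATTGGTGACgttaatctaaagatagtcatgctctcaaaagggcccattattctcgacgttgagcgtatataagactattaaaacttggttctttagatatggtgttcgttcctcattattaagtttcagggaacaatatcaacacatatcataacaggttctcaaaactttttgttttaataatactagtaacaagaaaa
A CCAAT core was found in 8 of the 10 promoters, all but *KGD2* and *LSC1*, against 42.9% of the 6668 CDS for which 300 upstream bases could be read. It lies 293 to 289 bases before the ATG of *CIT1* and occurs 2 times in the *ACO1* and *MDH1* windows. GTCAC was found in 3 of the 10 (*CIT2*, *KGD1* and *FUM1*), against 27.0% of all. In *CIT2* the cores share a base, as ATTGG from 200 to 196 and GTGAC from 196 to 192 bases before the ATG. These are matches of letters in a window and not mapped binding sites. The share of all promoters with 2 CCAAT cores was not counted, and a relation of the cores to the changes was not tested.

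Levels were compared on the deposited scale, log2 of scaled reads per kb of CDS, on which genes of different length can be set side by side. With CuSO4 the 10 ran from 8.05 to 10.85 with a median of 9.99, and in YPD from 7.94 to 10.72 with a median of 9.84. The medians of all CDS were 7.84 with CuSO4 and 7.82 in YPD, so that each of the 10 stood above the median CDS in both libraries, *KGD1* by the least. The span between the highest and the lowest, *IDH2* and *KGD1*, was 6.96-fold with CuSO4 and 6.88-fold in YPD.

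With CuSO4 the levels descended in the order *IDH2*, *ACO1*, *MDH1*, *LSC1*, *IDH1*, *CIT1*, *FUM1*, *KGD2*, *CIT2* and *KGD1*. There 3 pairs of neighbours, *MDH1* and *LSC1*, *IDH1* and *CIT1*, and *CIT2* and *KGD1*, were within counting error of each other. In YPD the order was *IDH2*, *ACO1*, *LSC1*, *MDH1*, *IDH1*, *FUM1*, *CIT1*, *KGD2*, *CIT2* and *KGD1*. Of the neighbours there, only *LSC1* and *MDH1* were within counting error, with a difference of 0.07 (interval -0.05 to 0.19). *CIT1* stood above *FUM1* with CuSO4 by 0.16 (0.05 to 0.27) on the log2 scale and below it in YPD by 0.12 (0.003 to 0.24).

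**Figure D1:**
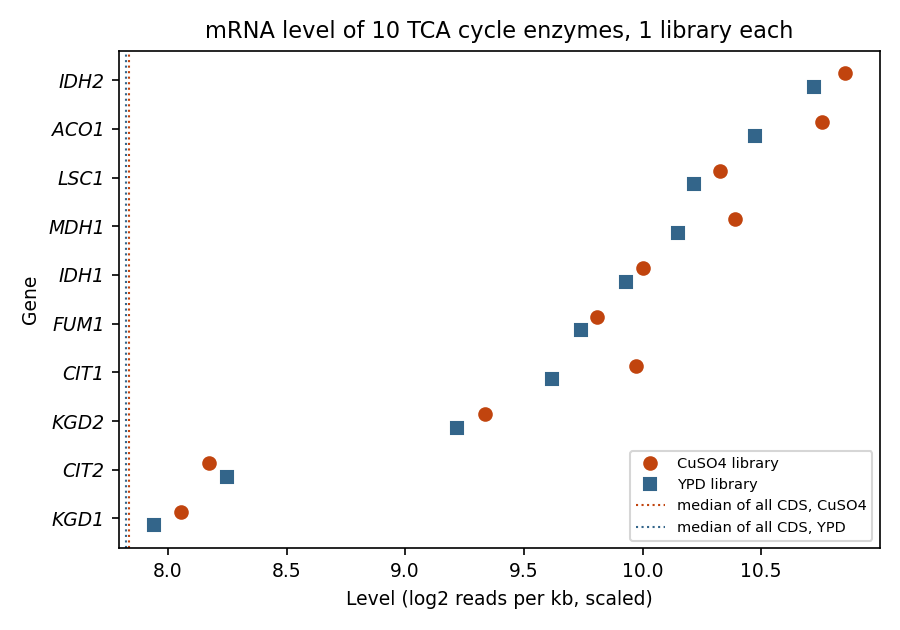
The level of each of the 10 enzymes (log2 reads per kb, scaled) is plotted as a circle for the CuSO4 library and a square for the YPD library, with genes ordered by their YPD level and dotted lines at the medians of all CDS. The circles, all but that of *CIT2*, lie to the right of their squares, and the widest gap is that of *CIT1*, at 9.97 with CuSO4 and 9.62 in YPD.

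Citrate synthase condenses acetyl-CoA with oxaloacetate. *CIT1* (YNR001C, chromosome XIV from 629622 to 631061, minus strand) encodes the mitochondrial enzyme. It had 1445 reads with CuSO4 and 1095 in YPD, for a log2 change of 0.35 (interval 0.24 to 0.46), the largest of the 10 and above that of 95.7% of the 5167 CDS whose higher library held at least 100 reads. *CIT2* (YCR005C, chromosome III from 120946 to 122328, minus strand) encodes the peroxisomal citrate synthase. It had 399 reads with CuSO4 and 406 in YPD, for a log2 change of -0.07 (-0.28 to 0.13), an interval that includes 0. The changes of the isoenzymes differed by more than counting error: that of *CIT2* minus that of *CIT1* was -0.43 (-0.65 to -0.20). On the level scale *CIT1* exceeded *CIT2* by 3.48-fold with CuSO4 and by 2.59-fold in YPD. The CDS are 74.0% identical where they align, and their longest shared run is 21 bases. No stretch of 50 bases of any of the 10 CDS occurs a second time in the nuclear genome.

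A further mitochondrial isoenzyme, *CIT3*, was lower in level than *CIT1* by 43.1-fold with CuSO4 and 22.7-fold in YPD. It had 34 reads in the CuSO4 library and 49 in YPD, and the interval of its change of -0.58 (-1.25 to 0.08) includes 0. Its difference from the change of *CIT1* was -0.93 (-1.57 to -0.29). The 3 CDS whose pair of levels lay closest to that of *CIT1*, by Euclidean distance over the 2 libraries, were *SAC6*, *LSM2* and *YFL031C-A*, at distances of 0.113, 0.113 and 0.117. They had changes of 0.19, 0.24 and 0.36. Picked by both levels, they had to have changes near that of *CIT1*. *YFL031C-A* had only 97 reads with CuSO4 and 73 in YPD.

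Aconitase interconverts citrate and isocitrate. *ACO1* (YLR304C, chromosome XII from 735212 to 737548, minus strand) encodes the mitochondrial aconitase, which in budding yeast also takes part in the maintenance of mitochondrial DNA. It had 4041 reads with CuSO4 and 3209 in YPD, for a log2 change of 0.28 (0.22 to 0.35). This was the most precisely counted of the changes, and was larger than that of 92.7% of CDS with at least 100 reads.

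*IDH1* and *IDH2* encode the subunits of the NAD-dependent isocitrate dehydrogenase, which produces alpha-ketoglutarate. *IDH1* (YNL037C, chromosome XIV from 557920 to 559002, minus strand) had 1111 reads with CuSO4 and 1021 in YPD, for a log2 change of 0.07 (-0.05 to 0.20). *IDH2* (YOR136W, chromosome XV from 580250 to 581359, plus strand) had 2054 reads with CuSO4 and 1812 in YPD, for a log2 change of 0.13 (0.04 to 0.22). The changes differed by -0.06 (-0.21 to 0.09), *IDH1* minus *IDH2*, and so were not apart at this depth. The level of *IDH2* was 1.80 times that of *IDH1* with CuSO4 and 1.73 times in YPD. Of the 10 CDS, *IDH2* is the only one that overlaps another annotated CDS, sharing 251 bp with *YOR135C* on the opposite strand, which was assigned 361 reads with CuSO4 and 340 in YPD. Use of strand in the counting is not stated, and reads in that stretch cannot be told apart. Elsewhere, some CDS named for the opposite strand had levels near those of strongly read genes beside them. With CuSO4, *YCR013C* was at 15.17 and *PGK1* at 15.12, and *YAL037C-B* was at 15.13 and *CDC19* at 15.07. Counting without strand would give such levels, so reads assigned to *YOR135C* may be those of *IDH2*. *IDP1*, the mitochondrial NADP-dependent isocitrate dehydrogenase, had 753 reads with CuSO4 and 706 in YPD, for a log2 change of 0.04 (-0.11 to 0.19).

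The alpha-ketoglutarate dehydrogenase complex forms succinyl-CoA. *KGD1* (YIL125W, chromosome IX from 122689 to 125733, plus strand) encodes the component that decarboxylates the substrate, and had 809 reads with CuSO4 and 723 in YPD, for a log2 change of 0.11 (-0.03 to 0.26). *KGD2* (YDR148C, chromosome IV from 753675 to 755066, minus strand) encodes the succinyltransferase, with 901 reads in the CuSO4 library and 801 in YPD and a log2 change of 0.12 (-0.02 to 0.26). Their changes were within 0.01 of each other (difference -0.01, -0.21 to 0.19). Levels within the complex differed far more than the changes: *KGD2* was 2.44 times as high as *KGD1* with CuSO4 and 2.42 times in YPD. *LPD1*, the dihydrolipoamide dehydrogenase that this complex shares with pyruvate dehydrogenase, was 5.39 times as high as *KGD1* with CuSO4 and 5.73 times in YPD. Its change was 0.02 (-0.06 to 0.11), with 2148 reads in the CuSO4 library and 2041 in YPD. *YMR31*, a small subunit of the complex, had 192 reads with CuSO4 and 157 in YPD, for a log2 change of 0.24 (-0.07 to 0.55).

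Succinyl-CoA ligase makes succinate with the synthesis of ATP. *LSC1* (YOR142W, chromosome XV from 593057 to 594046, plus strand), its alpha subunit, had 1270 reads with CuSO4 and 1138 in YPD, for a log2 change of 0.11 (-0.01 to 0.23). *LSC2*, the beta subunit, had 1131 reads with CuSO4 and 895 in YPD, for a log2 change of 0.29 (0.16 to 0.42). The change of *LSC1* was smaller than that of *LSC2* by a difference of -0.18 (-0.35 to -0.01), and its level was higher than that of *LSC2* by 0.54 with CuSO4 and 0.72 in YPD on the log2 scale.

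Succinate dehydrogenase links the cycle to the respiratory chain. Of its 4 subunits, 3 were at least 1.2-fold higher with CuSO4, where 11.3% of all CDS were. With the libraries scaled on *ACT1* the count was 2, without *SDH2*, where 9.41% of all CDS were. *SDH1*, the flavoprotein, had 491 reads with CuSO4 and 380 in YPD, for a log2 change of 0.32 (0.12 to 0.52). *SDH2*, the iron-sulfur subunit, had 324 reads with CuSO4 and 258 in YPD, a change of 0.28 (0.04 to 0.52). The membrane anchor *SDH3* was at 0.13 (-0.04 to 0.30), from 606 reads with CuSO4 and 535 in YPD. The other anchor, *SDH4*, was at 0.31 (0.05 to 0.58), from 274 with CuSO4 and 213 in YPD. The interval lay above 0 for *SDH1*, *SDH2* and *SDH4*.

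*FUM1* (YPL262W, chromosome XVI from 47336 to 48802, plus strand) encodes fumarase, which hydrates fumarate to malate and is found in both mitochondria and cytosol. It had 1316 reads with CuSO4 and 1214 in YPD, for a log2 change of 0.07 (-0.05 to 0.18). *MDH1* (YKL085W, chromosome XI from 279123 to 280127, plus strand) encodes the mitochondrial malate dehydrogenase, which regenerates oxaloacetate. It had 1348 reads with CuSO4 and 1102 in YPD, for a log2 change of 0.24 (0.13 to 0.36), above that of 89.8% of CDS with at least 100 reads. The cytosolic *MDH2*, with 553 reads with CuSO4 and 466 in YPD, and the peroxisomal *MDH3*, with 1164 in the CuSO4 library and 1002 in YPD, had changes of 0.20 and 0.17. These differed from the change of *MDH1* by -0.04 (-0.26 to 0.17) and -0.07 (-0.24 to 0.09), so the 3 malate dehydrogenases were not apart at this depth.

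**Figure D2:**
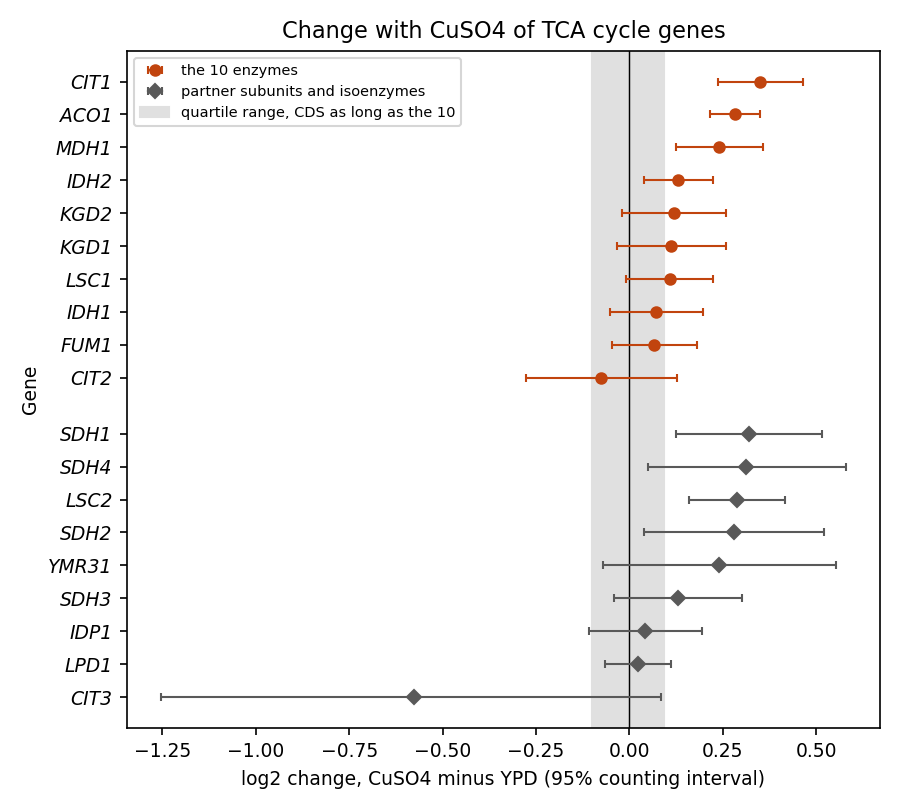
The log2 change with CuSO4 (CuSO4 minus YPD) is shown with its 95% counting interval for the 10 enzymes (circles, above) and for 9 partner subunits and isoenzymes (diamonds, below), over a grey band for the quartile range of CDS in the same range of length. Among the circles, *CIT1*, *ACO1*, *MDH1* and *IDH2* have intervals wholly above 0, and among the diamonds *SDH1*, *SDH4*, *LSC2* and *SDH2* do.

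Since all 10 were well counted, their changes can be set against those of the whole table. Of the 10, 2 (*CIT1* and *ACO1*) were at least 1.2-fold higher with CuSO4 and 0 at least 1.2-fold lower. With the libraries scaled on *ACT1*, the change of *ACO1* was 0.25, under that limit, and the count was 1. Among the 6078 CDS whose higher library held at least 20 reads, 11.3% were that much higher (9.41% when scaled on *ACT1*). Of the same CDS, 6.70% were that much lower (8.36% when scaled on *ACT1*). At 1.5-fold the counts of the 10 were 0 and 0, with 2.40% of all CDS higher and 1.53% lower, and at 2-fold again 0 and 0, with 0.526% and 0.658%. A change above 0 was found for 9 of the 10, where 53.2% of CDS were higher and 46.8% lower. The higher library held at least 1000 reads for 7 of the 10, of which 2 were at least 1.2-fold higher and 0 at least 1.2-fold lower, against 3.81% and 3.52% of the 1051 CDS with as many reads. The counting interval lay above 0 for 4 of the 10 and below 0 for 0, against 12.7% above and 11.1% below among CDS with at least 100 reads. These shares are not matched for depth, and intervals narrow as reads increase. Among 20 glycolysis and fermentation genes, many of them deeply counted, the interval lay above 0 for 5 and below 0 for 11. The median change of the 10 was 0.12, with a range from -0.07 to 0.35. Over all 6078 CDS the median was 0.01, with quartiles at -0.10 and 0.13.

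The size of the change also varied with CDS length over the whole table, which bears on lists of long or short genes. In 6 bins of length over CDS with at least 100 reads, the median change descended from 0.07 in the shortest bin (up to 612 bp) to -0.06 in the longest (from 2433 bp). The 10 CDS are 990 to 3045 bp long. Among the 2806 CDS in that range with at least 100 reads, a background added after the data were seen, the median was -0.01, 6.09% were at least 1.2-fold higher, 4.45% at least 1.2-fold lower and 48.1% higher by any amount. The part of length in the changes of the 10 was not tested.

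**Figure D3:**
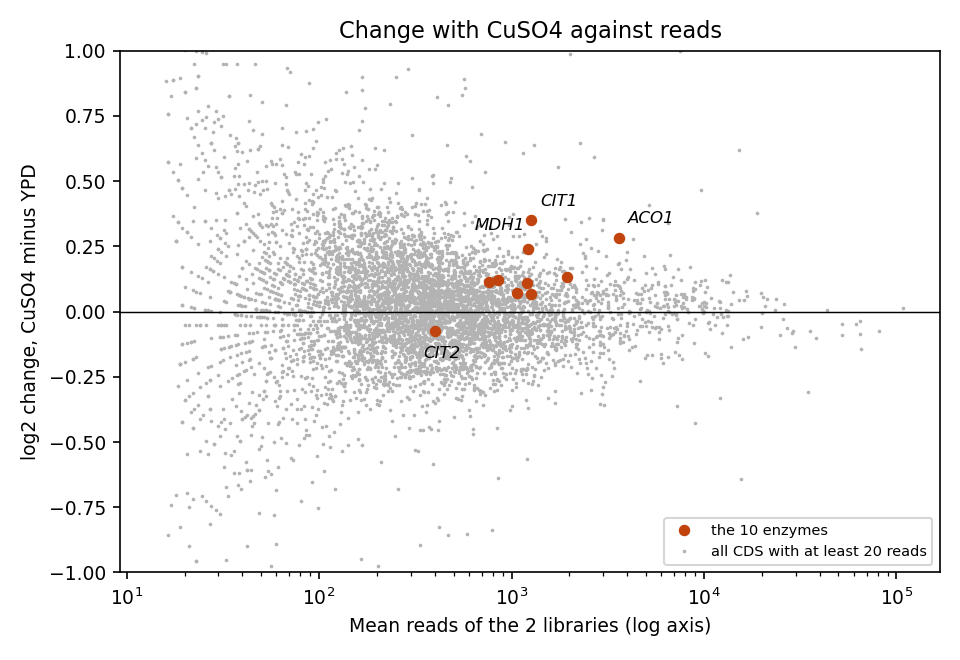
The log2 change with CuSO4 is plotted against the mean reads of the 2 libraries (log axis) for the 6078 CDS with at least 20 reads (grey; 72 lie beyond the axis) and the 10 enzymes (filled circles). The spread of all CDS narrows as reads increase, and *CIT1*, *ACO1* and *MDH1* lie near its upper edge at their number of reads, while *CIT2* lies within it.

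Other genes of the pathway were counted on lists chosen by function. Of 9 partner subunits and isoenzymes, 8 were higher and 1 lower, with a median change of 0.24, and 4 (*LSC2*, *SDH1*, *SDH2* and *SDH4*) were at least 1.2-fold higher and 1 (*CIT3*) at least 1.2-fold lower, against 53.2% of all CDS higher, 11.3% at least 1.2-fold higher and 6.70% at least 1.2-fold lower. With the libraries scaled on *ACT1*, 7 of the 9 were higher (*LPD1* was not) and 2 (*SDH1* and *SDH4*) at least 1.2-fold higher. On that scaling 46.3% of all CDS were higher and 9.41% at least 1.2-fold higher. Of 10 genes that bring pyruvate to the cycle or replenish it, 9 had at least 20 reads, of which 4 were higher and 5 lower, with a median of -0.08. Only *MAE1*, the mitochondrial malic enzyme, passed 1.2-fold among these. It had 1089 reads with CuSO4 and 1359 in YPD, for a log2 change of -0.37 (-0.49 to -0.25).

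Glyoxylate cycle genes and extramitochondrial isoenzymes, which are glucose-repressed in part, had a median change of -0.02, with 3 of 7 higher. Their summed reads gave a change of 0.12 (0.03 to 0.20). The interval lay above 0 for 2, *MDH2* (0.02 to 0.38) and *MDH3* (0.04 to 0.29), and below 0 for 0. Among CDS with at least 100 reads it lay above 0 for 12.7% and below 0 for 11.1%. For this list and those that follow, 53.2% of all CDS were higher, 11.3% at least 1.2-fold higher and 6.70% at least 1.2-fold lower. *IDP3* and *IDP2*, the peroxisomal and cytosolic isocitrate dehydrogenases, passed 1.2-fold in opposite directions (neither did with 10 reads added), and both intervals include 0. *IDP3* was at 0.31 on 50 reads with CuSO4 and 39 in YPD, and *IDP2* at -0.27 on 49 with CuSO4 and 57 in YPD. Of 7 mitochondrial carriers, 6 had at least 20 reads, of which 2 were higher, and the citrate carrier gene *CTP1* had a log2 change of -0.32 (-0.70 to 0.05). Of 5 glutamate enzymes, 1 was higher and the median was -0.06. *GDH3*, a glutamate dehydrogenase, had a log2 change of -0.31 (-0.64 to 0.03).

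Among 9 genes, the retrograde and Hap regulators together with the retrograde marker *DLD3*, 5 were higher and the median was 0.04. *HAP3* had 115 reads with CuSO4 and 82 in YPD, for a log2 change of 0.44 (0.02 to 0.86), and *HAP2* had 88 with CuSO4 and 107 in YPD, a change of -0.33 (-0.76 to 0.09). *HAP4*, the glucose-regulated activating subunit, had 445 reads with CuSO4 and 384 in YPD, a change of 0.16 (-0.04 to 0.36). *DLD3*, which with *CIT2* is commonly used as a marker of the retrograde pathway, had 1478 reads with CuSO4 and 1445 in YPD, a change of -0.02 (-0.12 to 0.09).

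The steps on either side of the cycle, respiration and glycolysis, were compared as lists. All 35 genes of the respiratory chain and ATP synthase were higher with CuSO4 on the deposited scale, but 34 with the libraries scaled on *ACT1*, with each library centred on its median or with 10 reads added, where *CYC7* was lower. On the deposited scale the median change was 0.25 and 16 of the 35 were at least 1.2-fold higher (13 when scaled on *ACT1*). Of all CDS, 53.2% were higher and 11.3% at least 1.2-fold higher (46.3% and 9.41% when scaled on *ACT1*). Among the highest changes were those of the cytochrome bc1 subunits *QCR10*, at 0.58 with 149 reads in the CuSO4 library and 96 in YPD, and *QCR8*, at 0.52 with 467 in the CuSO4 library and 314 in YPD. The lowest were those of the cytochrome c isoform gene *CYC7*, at 0.007 (-0.58 to 0.60), with 52 reads in the CuSO4 library and 50 in YPD, and of *QCR9*, at 0.05 (-0.29 to 0.40), with 145 in the CuSO4 library and 135 in YPD. The ATP synthase subunit gene *ATP4* had a change of 0.30, with 1302 reads in the CuSO4 library and 1023 in YPD. These CDS are short, with a median length of 447 bp, so that the trend with length moves with this list. Summed reads of the 35 gave a change of 0.21 (0.19 to 0.24), against 0.18 (0.15 to 0.22) for the 10 cycle enzymes.

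Of 21 genes of glycolysis and fermentation, 20 had at least 20 reads, of which 8 were higher and 12 lower (5 and 15 with the libraries scaled on *ACT1*), with a median change of -0.06. At least 1.2-fold higher were *HXK1* (0.59), *TDH1* (0.41) and *GLK1* (0.36), and *TDH2* was at least 1.2-fold lower (-0.31). Of all CDS, 53.2% were higher (46.3% when scaled on *ACT1*), 11.3% at least 1.2-fold higher and 6.70% at least 1.2-fold lower. Members of this list with near-identical copies, among them *TDH2* and *TDH3*, are uncertain because reads may be split between copies. With CuSO4 the glycolytic genes had a median level of 14.11 and in YPD of 14.21 on the log2 scale, whereas the 10 enzymes of the cycle had medians of 9.99 with CuSO4 and 9.84 in YPD. No test of the difference between lists was made.

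**Figure D4:**
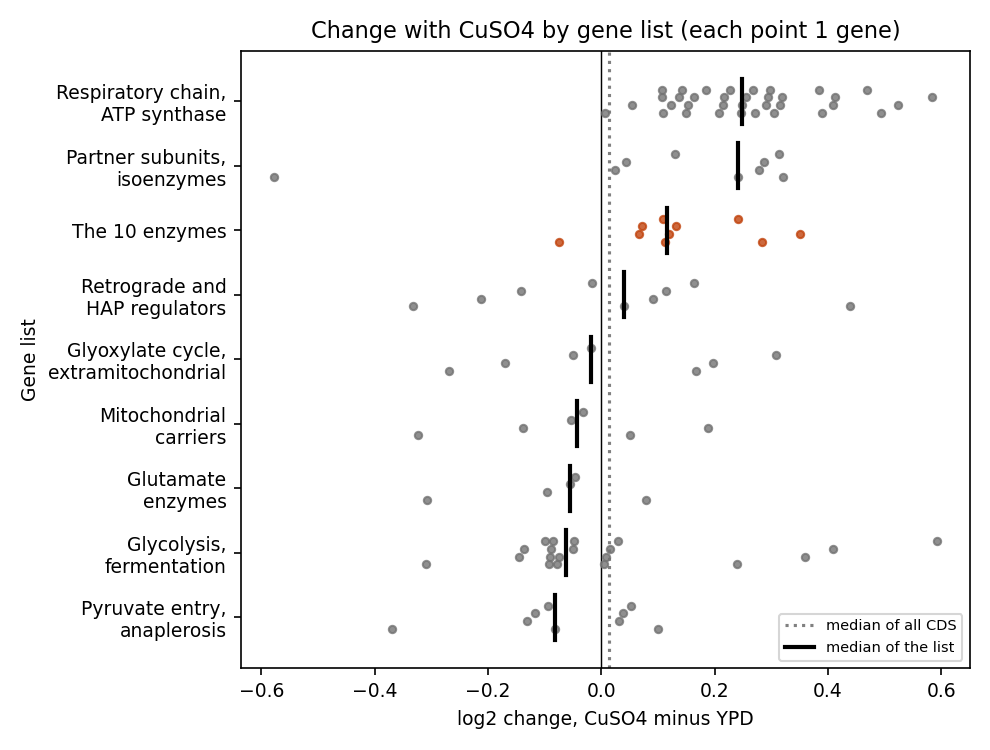
Each point is the log2 change with CuSO4 (CuSO4 minus YPD) of 1 gene with at least 20 reads, by gene list, with a bar at the median of each list and a dotted line at the median of all CDS. The 10 enzymes (coloured) have a median of 0.12, below the respiratory chain list at 0.25 and above the glycolysis list at -0.06.

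The position of γH2A peaks, the mark of stalled replication forks, was examined because the study classed genes by a peak within 1000 bp upstream of the CDS. None of the 10 (0 of 10) had such a peak, against 445 of all 6697 CDS, or 6.64%. The peak nearest to the start of any of them lies 10.2 kb from *ACO1*, on chromosome XII from 747795 to 748753, with the authors' fold enrichment of 2.71. For the other 9 the nearest peak lies between 27.9 kb (*FUM1*) and 211 kb (*IDH1*) from the start codon.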

How the data were processed

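Yeast cells (BY4741) with 1 mM CuSO4 for 4 hours or in YPD without it gave 1 poly(A)+ RNAseq library each; 3 further samples are γH2A ChIPseq and input libraries. The libraries were made with a directional kit, and whether the counting used strand is not given in the sources used here. The levels of some CDS on the strand opposite strongly read genes are such as counting without strand would give. The authors mapped RNA reads to R64 with HISAT2 2.0.5, counted them on CDS in SeqMonk, scaled to the larger library, divided by CDS length and took log2, and these log2 values were deposited. Peaks were called by the authors with Bowtie2 2.2.5 and MACS2, and the deposited list gives pileup signal, fold enrichment (a ratio over control) and -log10 p-values; of these only fold enrichment is printed. The list is labelled for 3 samples and was taken as that of YPD cells.

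Reads were recovered from the log2 values by length and by the value of CDS without reads (0.9 reads), with scales of 1 for CuSO4 and 1.04 for YPD; 99.9% of values above that floor came out within 0.02 of a whole number in each library. The change is the difference of deposited log2 values, CuSO4 minus YPD. Its interval is Clopper-Pearson on the reads, and that of a difference between changes a Wald interval. The Clopper-Pearson interval was tested on simulated data, for counting error alone. The Wald interval was not tested. Calls needed at least 20 reads in the higher library. No p-value was computed.

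The members, lists and thresholds (1.2-, 1.5- and 2-fold) were chosen with earlier results of these data known. From the list of partner subunits and isoenzymes 1 gene is not reported here, and the list's counts and median leave it out. Named are all 10 members, the partner subunits, genes of other lists at least 1.2-fold different, and the 3 CDS nearest to the member with the largest change. The respiratory chain list is an exception: of its 16 genes at least 1.2-fold different, only *QCR10*, *QCR8* and *ATP4* are named. *HAP4*, *DLD3*, *MDH2*, *MDH3*, *IDP1*, *TDH3*, *CYC7*, *QCR9* and the strain markers were named outside that rule, after their values were seen, as were the added pairs of isoenzymes. Symbols come from RefSeq R64, which has 6014 of the CDS (89.8%). Alternatives were other library scalings, added reads, minimum reads, no division by length, and other peak windows; counts of the gene lists under these scalings and added reads were chosen after seeing the data. Python 3.11.15, SciPy 1.17.1 and Biopython 1.88 were used.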

Additional observations from a re-analysis of the deposited data

How the results depend on the processing

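No paired analysis was possible because there is a single library of each condition, and for the same reason no replicate could be left out. Over 7 alternatives of scaling and added reads, each of the 10 single changes stayed within its counting interval and kept its sign (70 of 70). A scaling adds the same amount to the change of every gene, so the 70 are not separate checks. The median change of the 10 ran from 0.09 to 0.12. The change of summed reads of the 10 ran from 0.15 to 0.19, and the median change of the respiratory chain list from 0.22 to 0.26. With the libraries scaled on *ACT1*, 1 enzyme (*CIT1*) was at least 1.2-fold higher, against 2 on the deposited scale, and the median change of the glycolysis list was -0.091, against -0.062. Without division by CDS length, 4 pairs of neighbours in the order of levels in YPD were within counting error, against 1. The remaining 147 of 150 alternatives kept a count to within a factor of 1.5 or left a value inside a band. For summed reads and differences between changes the band was the counting interval. For the median of a list it was a range of the sorted changes of its genes. For the median of all CDS it was their quartile range. These last bands are spreads over genes and not counting error. Many of the 147 alternatives could not have moved. The largest change of a member under any scaling or added reads was 0.36 (*CIT1*), so the counts at 1.5- and 2-fold stayed 0. All 10 had at least 100 reads in both libraries, so a minimum of up to 100 reads left out no member. The number of enzymes with a γH2A peak was 0 under all 4 other peak settings. That was fixed in advance, as the nearest peak lies 10.2 kb away and the widest window was 2000 bp. The limit of these data is the single library of each condition: a difference between cultures or libraries cannot be told apart from one between conditions, and counting intervals do not cover it. For *CIT2*, the least counted member, the interval allows changes from -0.28 to 0.13.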
